A study of Mus musculus with 23 samples.

Results

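MHC class II genes were followed in 23 RNA sequencing libraries of flow sorted tdTomato+ mouse lung tumor cells. The 7 genes were taken by symbol: the chain genes H2-Aa, H2-Ab1 and H2-Eb1, the peptide editor genes H2-DMa and H2-DMb1, the invariant chain gene Cd74 and the transactivator gene Ciita. They are 7 of the 35454 genes listed in both deposited tables, and all 7 had a mean normalized count of at least 10 in each table. All mice carried Braf CAT/+, an allele that expresses BRAFV600E together with the red fluorophore tdTomato once CRE has acted. CRE came from the adenovirus Ad5-Sftpc-CRE, in which the promoter of surfactant protein C drives CRE. BRAFV600E tumors gave 6 libraries, 1 at 2 weeks, 3 at 6 weeks and 2 at 12 weeks post induction (p.i.). BRAFV600E/PI3KαH1047R tumors, which also carried HR/+, the inducible H1047R allele of Pik3ca, gave 8 libraries, with 2, 4 and 2 at the same times. A second table held BRAFV600E tumors at 12 weeks p.i. with 1 mutant allele of Ppargc1a, the gene of the transcriptional coactivator PGC1α (PGC1αHet, 5 libraries), or with both alleles mutant (PGC1αNull, 4 libraries). Mice of both sexes were 3 to 4 months old and were of mixed descent, from the C57BL/6, FVB and 129 strains. Mice harvested at 12 weeks p.i. received less virus, so the week and the virus titer cannot be told apart at that time.

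Class II molecules are pairs of an α and a β chain that display peptides from endocytosed antigen to CD4+ T cells. New pairs are held by the invariant chain, encoded by Cd74, whose remnant in the peptide groove is exchanged for antigen peptides by H2-DM, the pair made by H2-DMa and H2-DMb1. Ciita does not bind DNA itself and is recruited to class II promoters by factors that sit on their X and Y boxes. Dendritic cells, B cells and macrophages are the classical class II-bearing cells, and in the lung alveolar type 2 (AT2) pneumocytes carry class II as well. Sftpc, which encodes surfactant protein C, marks AT2 cells, and Adgre1, which encodes F4/80, marks macrophages.

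In GRCm38.p6 with the GENCODE vM21 annotation, 5 of the 7 genes lie together on chromosome 17. H2-DMa (plus strand) spans 34119541 to 34139101, H2-DMb1 (plus) 34153072 to 34160230, H2-Ab1 (plus) 34257689 to 34269419, H2-Aa (minus) 34282744 to 34287823 and H2-Eb1 (plus) 34305867 to 34316674. Ciita (plus) lies on chromosome 16, from 10480059 to 10528418, and Cd74, encoded on another chromosome, is described below. The RefSeq table of promoters used here (GRCm38.p6) holds windows for 4 of the 7 genes. The 150 bases before the start are printed for H2-Aa and H2-Eb1, because these neighbouring genes had different patterns across libraries. Each is written 5′ to 3′ on the gene's own strand, at chr17:34287824-34287973 (minus) and chr17:34305717-34305866 (plus). Capitals mark the Y box, CCAAT or its reverse complement ATTGG, and an X box core, searched as AG, any 2 bases, AC, any 3 bases and TG.
H2-Aa: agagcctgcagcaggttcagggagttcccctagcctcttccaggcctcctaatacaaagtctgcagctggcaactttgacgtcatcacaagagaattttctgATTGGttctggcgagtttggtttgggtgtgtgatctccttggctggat
H2-Eb1: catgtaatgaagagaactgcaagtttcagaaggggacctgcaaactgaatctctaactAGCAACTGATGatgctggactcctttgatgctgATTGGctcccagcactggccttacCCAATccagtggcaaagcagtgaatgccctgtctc
The H2-Eb1 window held an X box core from 92 to 82 bases before the start, ATTGG from 59 to 55 bases before it and CCAAT from 35 to 31 bases before it. The H2-Aa window held ATTGG from 48 to 44 bases before the start and no match to the X box letters searched. H2-DMb1, not printed, held the same order as H2-Eb1, with AGTAACTGATG from 95 to 85 and ATTGG from 61 to 57 bases before the start. H2-DMa has 2 windows in the table, and neither held a match to the X box letters searched. One of them held ATTGG, from 198 to 194 bases before its start, and the other held no Y box. Over all 32851 RefSeq windows of 250 bases before a start, 33.8% held CCAAT on either strand, 12.2% held the X box core on either strand and 0.18% held the X box core followed within 30 bases by ATTGG on the gene's strand. These matches describe letters and say nothing about binding in these cells. An X box spelled otherwise would be missed by this search. The lack of a match for H2-Aa and H2-DMa therefore does not show that they lack an X box.

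The libraries of the first table summed to between 16433800 and 20287300 normalized counts and those of the second table to between 7115750 and 9159570. The deposited values are normalized estimates and not reads, so the depth in reads is unknown and the spread between libraries gives the precision. The 2 tables were normalized separately, and genes were tested only within a table. AT2 markers were all found (12 of 12), with summed levels of 63263 to 1418190 normalized counts in the first table and 413711 to 679387 in the second, against 2279 to 27856 for the 11 macrophage markers found and 721 to 4926 for 3 pan leukocyte markers in the first table. Endothelial markers were high in places: 8 of them summed to 80848 in BRAFV600E/PI3KαH1047R 6 week replicate 1 and to 55076 and 56769 in BRAFV600E/PI3KαH1047R 2 week replicates 1 and 2, against 5266 to 38497 in the other 11 libraries. The same 3 libraries had the lowest Sftpc, with 82500, 38864 and 21173 normalized counts, so the genotype differences of the 7 genes with all weeks together and their relations with Sftpc and Pecam1 over the 14 libraries are also given without them. Both BRAFV600E/PI3KαH1047R libraries at 12 weeks went against their sex labels by the Y-linked gene Kdm5d, with 501.6 normalized counts where the label says male and 4728 where it says female. They share a group, so no group changed. The study's methods count individual animals as replicates and the labels name no animal, so p-values measure the spread between these libraries. In bulk RNA, fewer cells of a type and less RNA per cell cannot be told apart.

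Per kb of merged exons, the mean level over the 14 libraries of the first table was highest for Cd74, at 20000 normalized counts per kb. H2-Aa followed with 4565 per kb, H2-Ab1 with 2175, H2-DMb1 with 317, H2-Eb1 with 283, H2-DMa with 191 and Ciita with 91.6. In the second table Cd74 (11149 per kb), H2-Aa (1730) and H2-Ab1 (1447) again led, and Ciita (31.4) was lowest, while H2-Eb1 (258) lay just above H2-DMb1 (250.5). The order of H2-DMb1 and H2-Eb1 therefore differed between tables, and their library values overlapped in both. By group means Ciita, the regulator, was the least abundant of the 7 per kb in 6 of 8 groups. In BRAFV600E tumors at 6 weeks H2-Eb1 was lower (54.2 against 82.7 per kb), and in BRAFV600E/PI3KαH1047R tumors at 2 weeks H2-DMa (43.2) and H2-DMb1 (62.1) were lower than Ciita (87.3).

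The α chain gene H2-Aa and the β chain gene H2-Ab1 encode the 2 chains of I-A. In BRAFV600E tumors H2-Aa had 13565 normalized counts at 2 weeks, 34760.1, 22276 and 17308 at 6 weeks and 24346 and 29264 at 12 weeks p.i. With PI3KαH1047R it had 8909.8 and 3285 at 2 weeks, 6212, 15871, 15288 and 17615 at 6 weeks and 18132 and 15901 at 12 weeks. All 8 BRAFV600E/PI3KαH1047R libraries lay below the mean of the BRAFV600E libraries, 23587 normalized counts, and 3 lay below every BRAFV600E library. The genotypes overlapped for H2-Aa at 6 weeks and not at 12 weeks, where both BRAFV600E/PI3KαH1047R values were the lower, as they were for 13.8% of all 17558 genes tested. H2-Ab1 had 7456 in BRAFV600E tumors at 2 weeks, 7586, 5756 and 3612 at 6 weeks and 4881 and 8089 at 12 weeks. With PI3KαH1047R H2-Ab1 had 1884 and 1373 at 2 weeks, 1997, 6389, 4061 and 4147 at 6 weeks and 11067 and 9896 at 12 weeks. For H2-Ab1 both BRAFV600E/PI3KαH1047R values at 2 weeks lay below the single BRAFV600E value, as for 35.1% of all genes, and the genotypes overlapped at 6 weeks. Both BRAFV600E/PI3KαH1047R values of H2-Ab1 at 12 weeks lay above every BRAFV600E library, as for 3.67% of all genes. The same 2 libraries had the lowest ratios of H2-Aa to H2-Ab1 of the 14 and the most H2-Eb1, as given below. The mice were of mixed descent, and the part of strain in these differences was not tested.

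H2-Eb1 encodes the β chain of I-E, whose α chain gene is listed in the annotation as a pseudogene, H2-Ea-ps. Whether these cells make I-E was not tested. H2-Eb1 had 692 normalized counts in BRAFV600E tumors at 2 weeks, 143, 115 and 58.8 at 6 weeks and 111 and 1171 at 12 weeks p.i. With PI3KαH1047R it had 613 and 133 at 2 weeks, 394, 708, 89 and 92 at 6 weeks and 1799.8 and 1594 at 12 weeks. Libraries of 1 group differed widely, and the genotypes overlapped at 6 weeks. Both BRAFV600E/PI3KαH1047R values lay below the BRAFV600E value at 2 weeks and above every BRAFV600E library at 12 weeks, with the same 35.1% and 3.67% of all genes.

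The peptide editor genes H2-DMa and H2-DMb1 had lower levels per kb than the I-A genes. H2-DMa had 454 normalized counts in BRAFV600E tumors at 2 weeks, 899, 962 and 543 at 6 weeks and 1091 and 932 at 12 weeks p.i. With PI3KαH1047R it had 131 and 167 at 2 weeks, 238, 624, 431 and 875 at 6 weeks and 915 and 948 at 12 weeks, so the genotypes overlapped at 6 and 12 weeks. H2-DMb1 had 593 in BRAFV600E tumors at 2 weeks, 1015, 581 and 621 at 6 weeks and 507 and 929 at 12 weeks. With PI3KαH1047R H2-DMb1 had 145 and 63.6 at 2 weeks, 139, 541, 298 and 517 at 6 weeks and 638 and 878 at 12 weeks. At 6 weeks all 4 BRAFV600E/PI3KαH1047R values of H2-DMb1 lay below all 3 BRAFV600E values, as for 2.6% of all genes, and at 12 weeks the values overlapped.

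Cd74, on chromosome 18 from 60803848 to 60812652 (plus strand), was the most abundant of the 7 per kb. It had 28808 normalized counts in BRAFV600E tumors at 2 weeks, 54403, 36403 and 26662 at 6 weeks and 39568 and 60789.9 at 12 weeks p.i. With PI3KαH1047R it had 6916 and 5067 at 2 weeks, 11671, 36043, 30544 and 27097 at 6 weeks and 55282 and 50873 at 12 weeks. The 3 lowest values of Cd74 were those of the 3 libraries highest in endothelial markers, and the other 11 libraries held 26662 to 60789.9. Ciita had 980.0 in BRAFV600E tumors at 2 weeks, 1241, 664 and 462 at 6 weeks and 649.5 and 1054 at 12 weeks. With PI3KαH1047R Ciita had 1225 and 439 at 2 weeks, 318, 804, 638 and 723 at 6 weeks and 2188 and 845 at 12 weeks. The genotypes overlapped for Ciita at 6 and 12 weeks, and its highest value came from the library with the most Adgre1.

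**Figure D1:**
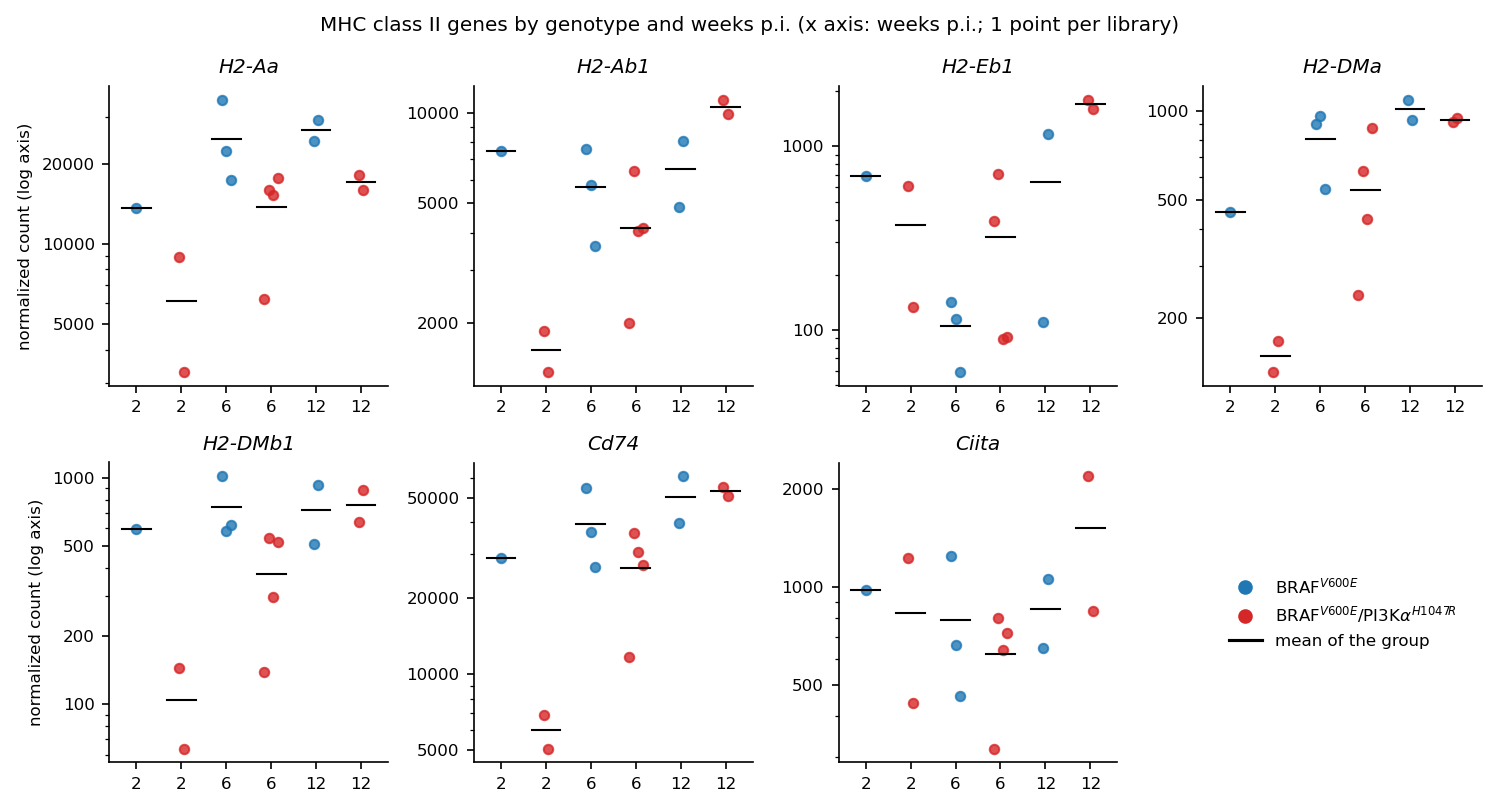
Normalized counts (log axis) of the 7 MHC class II genes in each of the 14 libraries of the first table, by genotype and weeks p.i. Points are libraries and bars are group means. H2-DMb1 values with PI3KαH1047R at 6 weeks (139 to 541) sit below the BRAFV600E values (581 to 1015), while at 12 weeks the 2 genotypes overlap.

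To ask whether PI3KαH1047R went with the level of class II genes, genotypes were compared by limma on log2 (normalized count + 1) over 17558 genes, with Benjamini-Hochberg adjustment at 0.05. None of the 7 genes passed with all weeks together, where 0.0228% of all genes did. At an unadjusted p-value under 0.05, 2 of the 7 were lower, where 3.38% of all genes were. H2-Aa averaged 12652 ± 5679 normalized counts (SD, n = 8) with PI3KαH1047R and 23587 ± 7736 (SD, n = 6) without, a log2 difference of -1.02 ± 0.37 (SE; limma adjusted p = 0.579). The exact permutation test over the 14 libraries (3003 arrangements, two-sided) gave p = 0.0213 for H2-Aa and p = 0.0483 for H2-DMb1. H2-DMb1 averaged 403 ± 287 (SD, n = 8) with PI3KαH1047R and 708 ± 210 (SD, n = 6) without, a log2 difference of -1.20 ± 0.51 (limma adjusted p = 0.684). Cd74 differed by -0.92 ± 0.51, H2-DMa by -0.87 ± 0.46, H2-Ab1 by -0.60 ± 0.44, Ciita by -0.06 ± 0.37 and H2-Eb1 by 0.89 ± 0.83 (limma adjusted p from 0.738 to 0.982). The median log2 difference of the 7 was -0.87, beside 0.02 over all genes tested.

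The 3 libraries highest in endothelial markers and lowest in Sftpc were all from BRAFV600E/PI3KαH1047R tumors, and without them the differences of 5 of the 7 genes were smaller in size. The median log2 difference of the 7 genes was then -0.03. Cd74 differed by -0.03 ± 0.25, H2-DMa by -0.09 ± 0.28, H2-DMb1 by -0.33 ± 0.28 and H2-Ab1 by 0.12 ± 0.30. Ciita differed by 0.22 ± 0.34 and H2-Eb1 by 1.06 ± 0.97, both larger in size than over all libraries. H2-Aa differed by -0.44 ± 0.21 (limma adjusted p = 0.795). None of the 7 passed, where 0.0342% of all genes did, and 0 of the 7 reached an unadjusted limma p-value under 0.05, so neither H2-Aa nor H2-DMb1 did any longer, where 3.2% of all genes were lower at that threshold. The part of the endothelial markers in the genotype differences was not tested.

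By week, each genotype and week was given its own mean in a fit to all 14 libraries. At 2 weeks p.i. all 7 genes had lower estimates with PI3KαH1047R and none passed, where 0.0171% of all genes did. The median log2 difference of the 7 was -1.61, beside 0.01 over all genes. An unadjusted p-value under 0.05 was reached by 4 of the 7, where 6.57% of all genes reached it in this direction. These were H2-DMb1 with -2.61 ± 0.78, Cd74 with -2.28 ± 0.59, H2-Ab1 with -2.21 ± 0.60 and H2-DMa with -1.61 ± 0.64 (limma adjusted p = 0.181, 0.139, 0.149 and 0.301). This comparison sets 2 libraries, both among the 3 highest in endothelial markers and labelled male, against 1 labelled female, so genotype, sex and that library cannot be told apart. Without BRAFV600E/PI3KαH1047R 6 week replicate 1, which gives part of the spread, Cd74 and H2-Ab1 passed at 2 weeks with the same estimates (limma adjusted p = 0.0236 and 0.0431), where 268 of all genes did. At 6 weeks none of the 7 passed, where 0.0228% of all genes did, and the median log2 difference was -0.63. H2-DMb1 differed by -1.12 ± 0.49 (limma adjusted p = 1) and H2-Aa by -0.90 ± 0.41 (limma adjusted p = 1), where 1.99% of all genes were lower at an unadjusted p-value under 0.05. Without BRAFV600E/PI3KαH1047R 6 week replicate 1, one of the 3 libraries highest in endothelial markers, these differences were -0.71 ± 0.41 and -0.55 ± 0.34, and neither reached an unadjusted p-value under 0.05. Exact permutation at 6 weeks (35 arrangements) gave p = 0.114 for H2-DMb1 and p = 0.0857 for H2-Aa, and 0.0286 is the smallest value it can give. At 12 weeks none passed, adjusted or not, where 0.0114% of all genes passed with adjustment and 3.76% without. The median log2 difference at 12 weeks was 0.12, with H2-Aa at -0.65 ± 0.53 and H2-Eb1 at 2.23 ± 1.17.

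The difference between weeks was tested directly. None of the 7 genotype differences changed between weeks at an adjusted p-value under 0.05, and 0 of all 17558 genes did. At an unadjusted p-value under 0.05, H2-Ab1, Cd74 and H2-DMb1 had a higher genotype difference at 12 than at 2 weeks, by 2.95 ± 0.77, 2.40 ± 0.76 and 2.74 ± 1.01 on the log2 scale (limma adjusted p of at least 0.404), where 4.37% of all genes did. Each of these rests on the single BRAFV600E library at 2 weeks.

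**Figure D2:**
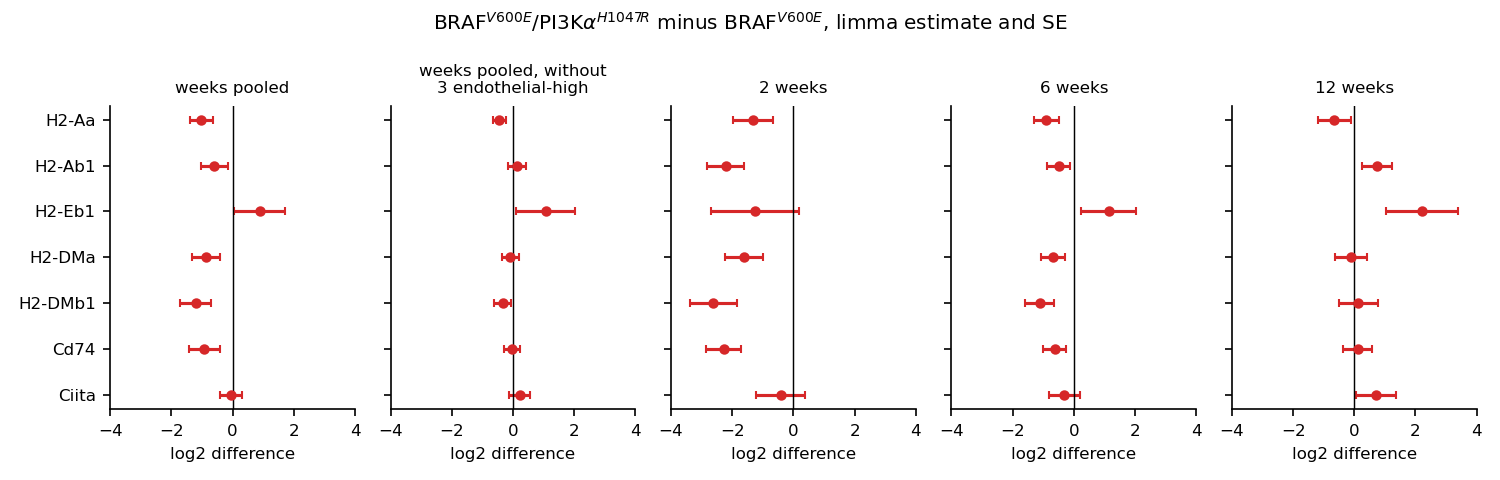
Difference in log2 (normalized count + 1) between BRAFV600E/PI3KαH1047R and BRAFV600E tumors for each of the 7 genes, as the limma estimate with its SE, for all weeks together, without the 3 libraries highest in endothelial markers, and at 2, 6 and 12 weeks p.i. Estimates lie between -1.20 and 0.89 with all weeks together and, for Cd74, move from -0.92 to -0.03 without those 3 libraries.

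Between 2 and 6 weeks with genotype held fixed, 5 of the 7 genes had higher and 2 lower estimates at 6 weeks, and none passed the adjusted threshold, where 0.0513% of all genes did. Cd74 had an estimate at 6 weeks p.i. above that at 2 weeks by 1.47 ± 0.42 on the log2 scale (limma adjusted p = 0.211), H2-DMa by 1.40 ± 0.38, H2-DMb1 by 1.27 ± 0.52 and H2-Aa by 1.09 ± 0.35 (limma adjusted p from 0.188 to 0.363). These 4 of the 7 reached an unadjusted p-value under 0.05, where 6.58% of all genes did in this direction. H2-Ab1 differed by 0.68 ± 0.47, Ciita by -0.33 ± 0.45 and H2-Eb1 by -1.20 ± 0.86. Of the 3 libraries at 2 weeks, 2 are among the 3 highest in endothelial markers and lowest in Sftpc, and the part of those markers in this difference was not tested. Without the single BRAFV600E library at 2 weeks only those 2 remained at that time, and the estimate for Cd74 was 2.15 (limma adjusted p = 0.0399), and 102 of all genes passed. Between 12 and 6 weeks H2-Eb1 differed by 2.39 ± 0.78 (limma adjusted p = 0.895), where 0% of all genes passed the adjusted threshold and 2.3% were higher at an unadjusted p-value under 0.05. The other 6 had estimates between 0.29 and 0.84, none at an unadjusted p-value under 0.05.

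In the second table, the comparison asked whether loss of PGC1α in BRAFV600E tumors went with class II levels. H2-Aa had 5471, 5707, 6404, 9184 and 8646 normalized counts in PGC1αHet tumors and 6476, 8139, 5621 and 3489 in PGC1αNull tumors. H2-Ab1 had 3515, 3066, 3545, 3531 and 3454 in PGC1αHet and 4582, 5376, 3091 and 3285 in PGC1αNull tumors. Both overlapped between groups, and H2-Ab1 varied less among PGC1αHet (SD 202, n = 5) than among PGC1αNull libraries (SD 1087, n = 4). H2-Eb1 had 476, 667, 561, 120.5 and 85 in PGC1αHet and 577, 811, 514 and 699 in PGC1αNull tumors, with 2 PGC1αHet libraries far below the others. H2-DMa had 509, 439, 470.1, 544 and 568 in PGC1αHet and 606, 669, 395 and 354 in PGC1αNull tumors. H2-DMb1 had 408, 383, 496, 408 and 362 in PGC1αHet and 413, 687, 338 and 295 in PGC1αNull tumors. For both editor genes the PGC1αNull values reached beyond the PGC1αHet values on either side. Cd74 had 17250.4, 16190.1, 20015, 24750.5 and 23678 in PGC1αHet and 16981, 20576, 15631 and 13400.0 in PGC1αNull tumors. Ciita had 331, 313, 187, 350.1 and 248 in PGC1αHet and 505, 265, 244 and 254 in PGC1αNull tumors. The 2 groups overlapped for both.

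None of the 7 genes passed the test between PGC1αNull and PGC1αHet tumors, either adjusted (limma, 17424 genes, 0% of all genes called) or at an unadjusted p-value under 0.05, which 667 genes (3.83%) reached. The estimates ran from -0.29 ± 0.25 for Cd74 to 1.17 ± 0.55 for H2-Eb1 (limma adjusted p = 0.998). The exact permutation test (126 arrangements) gave p from 0.143 for Cd74 to 0.944 for H2-DMb1, and 0.00794 is the smallest value it can give. Ppargc1a itself overlapped between PGC1αHet (75.8 to 561 normalized counts) and PGC1αNull libraries (38.0 to 124). Adgre1 did not overlap, with 44.9, 40.3, 14, 26.5 and 50.3 in PGC1αHet and 85.1, 68.1, 81 and 94.1 in PGC1αNull tumors (exact permutation p = 0.0159), and 0.941% of all genes lay higher in every PGC1αNull library. The summed pan leukocyte markers (247 to 1114 against 1134 to 2060) and endothelial markers (192 to 615 against 817 to 1725) were likewise higher in every PGC1αNull library. The summed macrophage markers overlapped (488 to 3857 in PGC1αHet and 1749 to 10764 in PGC1αNull tumors), as did the dendritic cell, B cell and T cell sums.

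**Figure D3:**
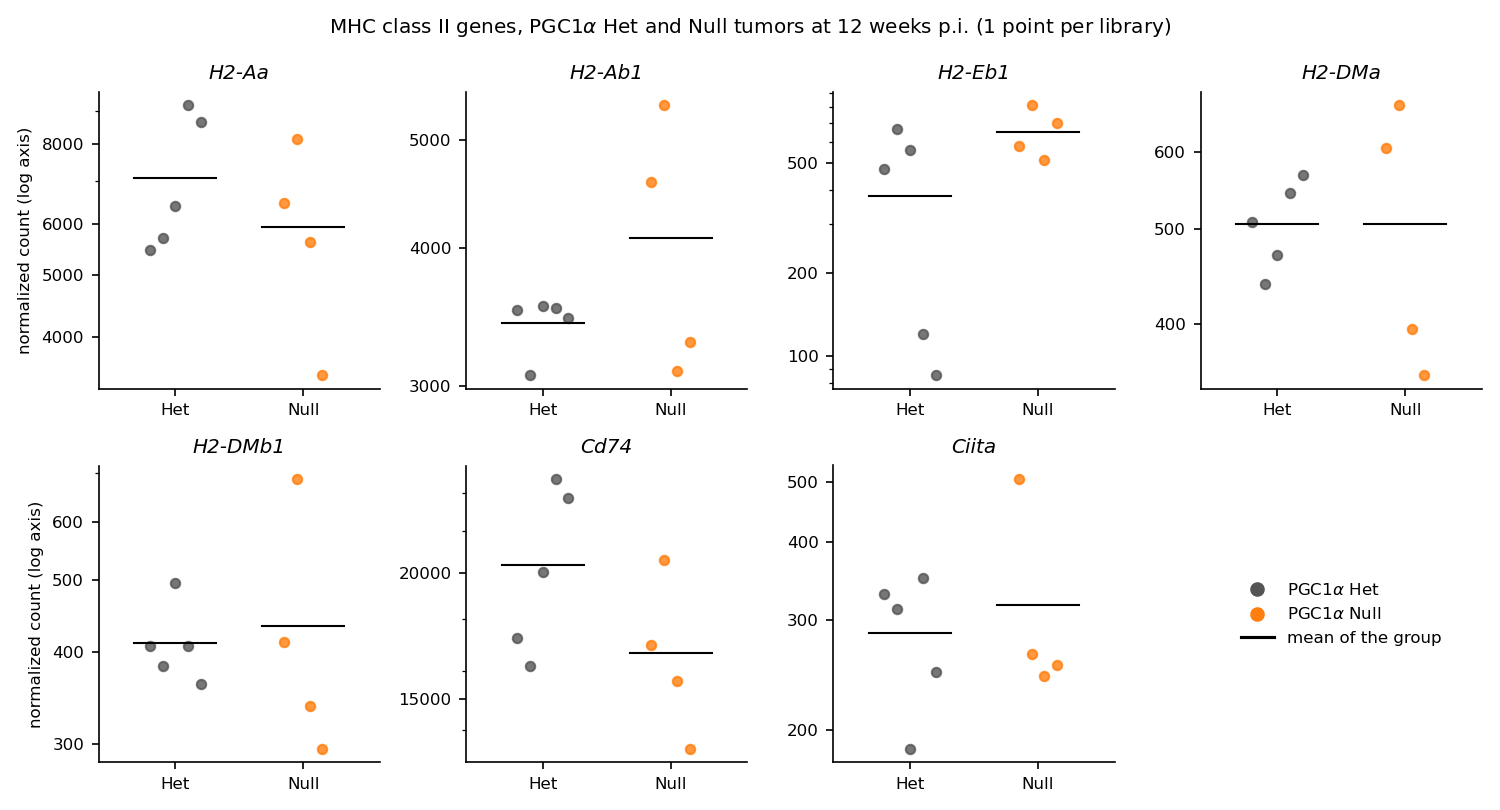
Normalized counts (log axis) of the 7 genes in the 5 PGC1αHet and 4 PGC1αNull libraries at 12 weeks p.i. Points are libraries and bars are group means. The groups overlap for all 7 genes, and 2 PGC1αHet libraries (85.0 and 120 normalized counts) stand below the rest for H2-Eb1.

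The level of class II genes was then set against Sftpc across the 14 libraries of the first table. The 2 quantities share a library and its normalization. Sftpc had 197371 normalized counts in BRAFV600E tumors at 2 weeks, 392700.0, 237836 and 164859 at 6 weeks and 251589 and 378088 at 12 weeks p.i. With PI3KαH1047R it had 38864 and 21173 at 2 weeks, 82500.1, 250127, 195707 and 221687 at 6 weeks and 256566 and 383005 at 12 weeks, an 18.5-fold range over the 14 libraries. In a limma fit of log2 (normalized count + 1) on the log2 level of Sftpc, 5 of the 7 genes had a positive slope at an adjusted p-value under 0.05, where 7.6% of all 17557 genes did. Cd74 had a slope of 0.877 ± 0.050 log2 units per log2 unit of Sftpc (limma adjusted p = 1.7e-08), and its r of 0.982 was reached by 0.0285% of all genes. H2-DMb1 had a slope of 0.897 ± 0.087, H2-DMa of 0.744 ± 0.092, H2-Ab1 of 0.672 ± 0.085 and H2-Aa of 0.647 ± 0.082 (limma adjusted p from 4.7e-06 to 6.4e-05). Ciita had a slope of 0.224 ± 0.137 (limma adjusted p = 0.303) and H2-Eb1 of 0.237 ± 0.340 (limma adjusted p = 0.698).

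For Cd74 and Sftpc, Pearson's r was 0.982 and Spearman's rho 0.943 (n = 14 libraries), each with a permutation p of 1e-05, the smallest that 100000 permutations can give. Without the 2 libraries farthest from the median of Sftpc, both BRAFV600E/PI3KαH1047R at 2 weeks, r was 0.952. For H2-DMb1 r was 0.954 (permutation p = 3.0e-05) and rho 0.824 (permutation p = 0.00053), for H2-DMa 0.922 (6.0e-05) and 0.820 (0.00069), for H2-Ab1 0.907 (2.0e-05) and 0.903 (4.0e-05), and for H2-Aa 0.904 (1e-04) and 0.811 (0.00084), each with n = 14 and the permutation p in brackets. Without the same 2 libraries these r were 0.902, 0.844, 0.843 and 0.843. For Ciita r was 0.395 (permutation p = 0.165) and rho 0.604 (permutation p = 0.0256), and r was 0.705 without those 2. In all, 28 relations of the 7 genes with Sftpc and Adgre1 over whole tables were computed, among 336 with other markers and subsets, and the adjusted p-values are those of the limma slopes over all genes.

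Within genotypes, r between Cd74 and Sftpc was 0.985 over 6 BRAFV600E libraries (exact permutation p = 0.00278) and rho 0.943 (exact permutation p = 0.0167). Over 8 BRAFV600E/PI3KαH1047R libraries r was 0.978 (exact permutation p = 0.000223) and rho 0.952 (exact permutation p = 0.00114). Over the 7 libraries at 6 weeks r was 0.981 (exact permutation p = 0.00179) and rho 0.929 (exact permutation p = 0.00675). Without the 2 farthest libraries these 3 values of r were 0.974, 0.936 and 0.763. H2-Aa, H2-Ab1, H2-DMa and H2-DMb1 had r of 0.898, 0.716, 0.663 and 0.790 in BRAFV600E tumors, where exact permutation gave p = 0.0208, 0.129, 0.147 and 0.0958, and rho was 0.943, 0.714, 0.429 and 0.429. Without the 2 farthest BRAFV600E libraries the r of H2-DMb1 was -0.83 over the 4 that remained, and those of H2-Aa, H2-Ab1 and H2-DMa were 0.711, 0.383 and 0.845, so the relation within BRAFV600E tumors rests on those 2 libraries for H2-Ab1 and H2-DMb1. In BRAFV600E/PI3KαH1047R tumors they had r of 0.910, 0.915, 0.934 and 0.963, where exact permutation gave p = 0.00439, 0.000372, 0.00136 and 0.000174, and rho was 0.857, 0.976, 0.952 and 0.976. Without the 2 farthest of these libraries r was 0.883, 0.898, 0.909 and 0.973. At 6 weeks r was 0.949 for H2-Aa and 0.897 for H2-DMb1, and 0.259 and 0.0959 without the 2 farthest, so both rest on those 2 libraries. For H2-Ab1 r at 6 weeks was 0.968 (exact permutation p = 0.000198) and 0.889 without the 2 farthest, and for H2-DMa it was 0.870 (exact permutation p = 0.0123) and 0.581. Ciita at 6 weeks had an r of 0.977 (exact permutation p = 0.000794) and a rho of 0.964 (exact permutation p = 0.00278), with an r of 0.928 without the 2 farthest. Within genotypes the r of Ciita with Sftpc was 0.778 in BRAFV600E tumors (exact permutation p = 0.0861) and 0.371 in BRAFV600E/PI3KαH1047R tumors (exact permutation p = 0.363).

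The 3 libraries highest in endothelial markers were also the 3 lowest in Sftpc. Without them the slopes of Cd74, H2-DMb1, H2-Ab1, H2-DMa and H2-Aa were similar but less certain, and those of Ciita and H2-Eb1 were larger. Over the other 11 libraries the slope of Cd74 was 0.93 ± 0.16, of H2-DMb1 0.88 ± 0.26, of H2-Ab1 0.87 ± 0.28, of H2-DMa 0.74 ± 0.28 and of H2-Aa 0.63 ± 0.24. Ciita had a slope of 0.70 ± 0.37 and H2-Eb1 of 2.27 ± 1.09 there (limma adjusted p = 0.503 and 0.464). None of the 7 then passed the adjusted threshold (for Cd74 limma adjusted p = 0.0903), where 0.0571% of all genes did, and these 5 reached an unadjusted p-value under 0.05, where 6.12% of all genes did with a positive slope. For Cd74 r was 0.884 over the 11 libraries (permutation p = 0.00033), for H2-DMb1 0.755 (permutation p = 0.00491), and for H2-Ab1, H2-DMa and H2-Aa 0.685, 0.655 and 0.626 (permutation p = 0.0221, 0.0288 and 0.0384). Spearman's rho was 0.882, 0.645, 0.800, 0.636 and 0.618 in the same order (permutation p = 0.00059, 0.0371, 0.00431, 0.0406 and 0.0470). For Ciita r was 0.494 (permutation p = 0.120) and rho 0.718 (permutation p = 0.0163). With Pecam1, an endothelial adhesion gene, as a second term in the fit to all 14 libraries, the same 5 genes had positive slopes on Sftpc at an adjusted p-value under 0.05, where 1.78% of all genes did. Cd74 then had a slope of 0.83 ± 0.07 (limma adjusted p = 6.8e-06) and the other 4 of 0.51 to 0.80 (limma adjusted p from 0.00142 to 0.0159).

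Lists of cell type markers gave the setting of these slopes over the 14 libraries. Apart from Sftpc, 11 of 11 AT2 markers had a positive slope on Sftpc (limma adjusted p under 0.05), where 7.6% of all genes did. Of 8 endothelial markers, 7 had a negative slope, where 8.81% of all genes did, and none a positive one. No macrophage (11 tested), dendritic cell (8), B cell (7) or T cell (6) marker had a positive slope, and 2 macrophage markers and 1 dendritic cell marker had a negative one. Without the 3 libraries highest in endothelial markers 4 of the 11 AT2 markers passed with a positive slope and 0 of the 8 endothelial markers passed (limma, 0.0571% of all genes called), while all 11 estimates were positive for the first list and all 8 negative for the second, 10 and 2 of them at an unadjusted p-value under 0.05. On the level of Pecam1 itself, 4 of the 7 class II genes passed with a negative slope, where 5.77% of all genes did: H2-Aa with -0.50 ± 0.15, H2-Ab1 with -0.64 ± 0.13, H2-DMb1 with -0.75 ± 0.18 and Cd74 with -0.70 ± 0.17 (limma adjusted p from 0.00329 to 0.0343). The 3 libraries highest in endothelial markers also had the most Pecam1, 11179 to 16965 normalized counts against 1264 to 7730 in the other 11. Without them 0 of the 7 passed, where 1.18% of all genes did, and the slopes were -0.0650 ± 0.138 for H2-Aa, -0.32 ± 0.15 for H2-Ab1, -0.22 ± 0.16 for H2-DMb1 and -0.17 ± 0.14 for Cd74 (limma adjusted p from 0.414 to 0.911). Ciita (-0.42 ± 0.16) and H2-Eb1 (-1.13 ± 0.50) then reached an unadjusted limma p-value under 0.05, where 4.72% of all genes did with a negative slope. On Ptprc, the leukocyte gene of CD45, on Itgax, expressed by dendritic cells and alveolar macrophages, and on Cd79a, part of the B cell receptor, none of the 7 passed (limma adjusted p of at least 0.320), where 0%, 0.0171% and 0% of all genes did. On Cd79a, which ran from 1.08 to 106 normalized counts, Ciita had a slope of -0.31 ± 0.07 and H2-Eb1 of -0.63 ± 0.19 (limma adjusted p = 0.320 and 0.436). For Ciita r with Cd79a was -0.79 (n = 14, permutation p = 0.00066), rho -0.72 (permutation p = 0.00449) and r -0.57 without the 2 farthest libraries, and over the 11 libraries lower in endothelial markers r was -0.83 (permutation p = 0.00265). In the 9 libraries it was -0.11 (exact permutation p = 0.788).

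**Figure D4:**
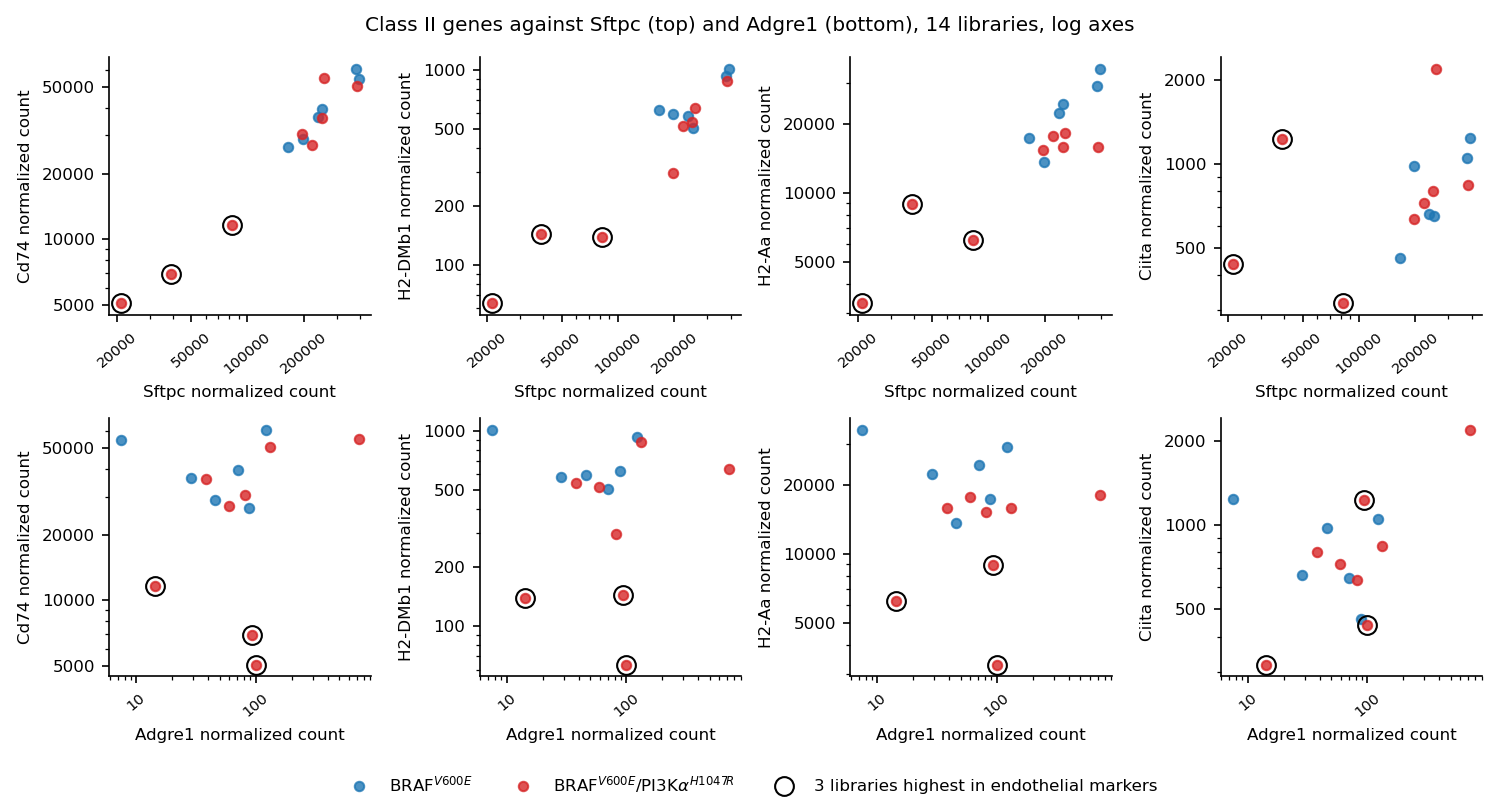
Normalized counts of Cd74, H2-DMb1, H2-Aa and Ciita against Sftpc (top) and Adgre1 (bottom) in the 14 libraries of the first table, all axes log. Rings mark the 3 libraries highest in endothelial markers. Cd74 lies close to a line against Sftpc (r = 0.982, n = 14) and spreads without order against Adgre1 (r = 0.09).

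Against Adgre1, which had 45.8 normalized counts in BRAFV600E tumors at 2 weeks, 7.48, 28.4 and 87.7 at 6 weeks and 70.5 and 122 at 12 weeks p.i., none of the 7 genes had a slope at an adjusted p-value under 0.05. In BRAFV600E/PI3KαH1047R tumors Adgre1 had 93.5 and 99.7 at 2 weeks, 14.2, 38.2, 81.7 and 59.3 at 6 weeks and 723 and 132 at 12 weeks, and replicate 1 at 12 weeks stood far above the rest. In the limma fit 0% of all genes passed and 6.29% reached an unadjusted p-value under 0.05, none of them among the 7. Pearson's r was 0.09 for Cd74, -0.07 for H2-Aa, 0.20 for H2-Ab1, 0.07 for H2-DMa, 0.02 for H2-DMb1 and 0.42 for Ciita (n = 14, permutation p from 0.133 to 0.955), and Spearman's rho ran from -0.06 to 0.22 for these 6 genes (permutation p from 0.445 to 0.865). Without that library r was between -0.17 and 0.04 for the same 6 (n = 13, permutation p from 0.584 to 0.906). The summed level of 11 macrophage markers was also highest there, at 27856 normalized counts, and C1qa was at 0 in some libraries of both genotypes. Within the 8 BRAFV600E/PI3KαH1047R libraries r between Ciita and Adgre1 was 0.820 (exact permutation p = 0.0208), rho 0.619 (exact permutation p = 0.115) and r -0.04 without the 2 libraries farthest from the median of Adgre1, so that relation rests on those libraries.

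In the second table Sftpc ranged 1.57-fold and none of the 7 genes had a slope at an adjusted p-value under 0.05, where 0% of all 17423 genes did. H2-DMb1 and H2-DMa reached an unadjusted p-value under 0.05 in the limma fit, where 5.44% of all genes did with a positive slope. Over the 9 libraries r with Sftpc was 0.797 for H2-DMb1 (exact permutation p = 0.00993, rho 0.900 with exact permutation p = 0.00203) and 0.769 for H2-DMa (exact permutation p = 0.0151, rho 0.733 with exact permutation p = 0.0311), with a limma adjusted p of 0.536 for both. Without the 2 libraries farthest from the median of Sftpc, PGC1αNull replicates 3 and 4, these r were 0.658 and 0.283. For Cd74 r was 0.500 (exact permutation p = 0.172) and -0.29 without those 2, and for H2-Aa 0.63 (exact permutation p = 0.0710) and -0.11, so both rest on those libraries. H2-Ab1 had an r of 0.633 (exact permutation p = 0.0633) and 0.659 without those 2. Against Adgre1 none of the 7 passed, where 0.0861% of all genes did, and r ran from -0.55 for Cd74 to 0.36 for Ciita (exact permutation p from 0.127 to 0.819 for the 6 genes other than H2-Eb1).

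The class II genes were also set against each other. Over the 10 pairs of H2-Aa, H2-Ab1, H2-DMa, H2-DMb1 and Cd74, r ran from 0.789 to 0.948 with a median of 0.908 in the 14 libraries, and from 0.280 to 0.937 with a median of 0.714 in the 9 libraries. Without the 2 farthest libraries the lowest of these r was 0.517 and 0.206. Without the 3 libraries highest in endothelial markers r ran from 0.144 to 0.795 with a median of 0.625 (n = 11), so the closeness of these pairs rests in part on those libraries. Ciita, which drives class II transcription in classical presenting cells, had r of 0.337 to 0.644 with those 5 genes in the 14 libraries and of -0.07 to 0.39 in the 9 libraries. At 6 weeks r was higher for all 5 genes. With H2-Ab1 the r of Ciita was 0.934 at 6 weeks (n = 7, exact permutation p = 0.00218; 0.725 without the 2 farthest), 0.958 in BRAFV600E tumors (n = 6, exact permutation p = 0.00694) and 0.626 in BRAFV600E/PI3KαH1047R tumors (n = 8, exact permutation p = 0.0939). Without the 3 libraries highest in endothelial markers it was 0.840 with H2-Ab1 (n = 11, permutation p = 0.00043, rho 0.909 with permutation p = 0.00021) and 0.696 with Cd74 (permutation p = 0.0113). Over the same 11 libraries it was 0.216 with H2-Aa and 0.297 with H2-DMa (permutation p = 0.524 and 0.381). With H2-DMb1 it was 0.431 there (permutation p = 0.184, rho 0.700 with permutation p = 0.0212). With Cd74 at 6 weeks it was 0.931 (n = 7, exact permutation p = 0.00516) and 0.583 without the 2 farthest. For H2-Aa, H2-DMb1 and H2-DMa at 6 weeks it was 0.879, 0.810 and 0.793 (n = 7, exact permutation p = 0.0244, 0.0335 and 0.0409) and -0.07, -0.17 and 0.36 without the 2 farthest, so these 3 rest on those libraries. In limma fits on Ciita none of the other 6 had a slope at an adjusted p-value under 0.05 in either table, where 0.234% and 0% of all genes did. The ratio of Sftpc to Cd74 stayed between 4.18 and 8.18 in the 14 libraries while Sftpc ranged 18.5-fold, and lay between 11.6 and 20.5 in the 9 libraries of the separately normalized second table.

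H2-Eb1 stood apart from the other chain genes. Its 14 values fell into 2 ranges of 7 libraries each, 58.8 to 143 and 394 to 1800 normalized counts, with a 2.76-fold step between them. Both ranges held both genotypes, and the upper range held both BRAFV600E/PI3KαH1047R libraries at 12 weeks. In the PGC1α table, 2 PGC1αHet libraries (85.0 and 120 normalized counts) lay below the other 7 (476 to 811) by a 3.95-fold step. Because of these ranges no correlation coefficient of H2-Eb1 over all libraries is given. The ratio of H2-Aa to H2-Eb1 ran from 9.98 to 294 in the 14 libraries, a 29.5-fold range, while that of H2-Aa to H2-Ab1 ran from 1.61 to 4.99. In the 9 libraries these ratios ran from 4.99 to 102 and from 1.06 to 2.60. The ratio of H2-Aa to H2-Ab1 was 1.64 and 1.61 in the 2 BRAFV600E/PI3KαH1047R libraries at 12 weeks. It was 4.99 and 3.62 in the 2 BRAFV600E libraries at that time. Over the 14 libraries it ran from 2.39 to 4.99 in the lower range of H2-Eb1 and from 1.61 to 4.73 in the upper, so the ranges overlapped. H2-Ea-ps, the pseudogene of the I-E α chain gene in the annotation, had 1.08 and 0 normalized counts in the 2 BRAFV600E/PI3KαH1047R libraries at 12 weeks and 38.5 and 37.4 in the 2 BRAFV600E libraries at that time (limma adjusted p = 0.791). The library with 37.4 held 1171 of H2-Eb1, in the upper range, and PGC1αNull replicate 2, which had the most H2-Eb1 of the second table (811), held 38.1 of H2-Ea-ps.

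Genes near H2-Eb1 were looked at after its values had been seen, with genes ranked by how closely their log2 level followed that of H2-Eb1. Of the 20 genes ranked highest in the 14 libraries, 3 (15%) lay within 3 Mb of it on chromosome 17, and of the 20 ranked lowest, which moved the opposite way, 5 (25%) did, where 1.13% of all genes ranked are placed in that window. The 3 were Rps18, a ribosomal protein gene with 164 to 1059 normalized counts, H2-T22 with 38.6 to 1202 and H2-T23 with 447 to 2918. The 5 were Gm8909, H2-T-ps, H2-Bl, H2-K2 and the meiotic gene Msh5. In the 9 libraries 4 (20%) of the 20 highest lay there, Ndufa7, Rps18, H2-T23 and H2-T22, and 0 of the 20 lowest, where 1.15% of all genes ranked are placed there. Rps18, H2-T22 and H2-T23 stood in the highest 20 of both tables, 15% of each list. The H2-T genes are class I-like genes with near copies, so reads may be split among them. This caveat is about the H2-T genes and not about Rps18, Ndufa7 or Msh5. The mice were of mixed descent, and the part of strain in the ranges of H2-Eb1 and in these ranks was not tested. These ranks describe libraries that share a normalization, and they were given no test.

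**Figure D5:**
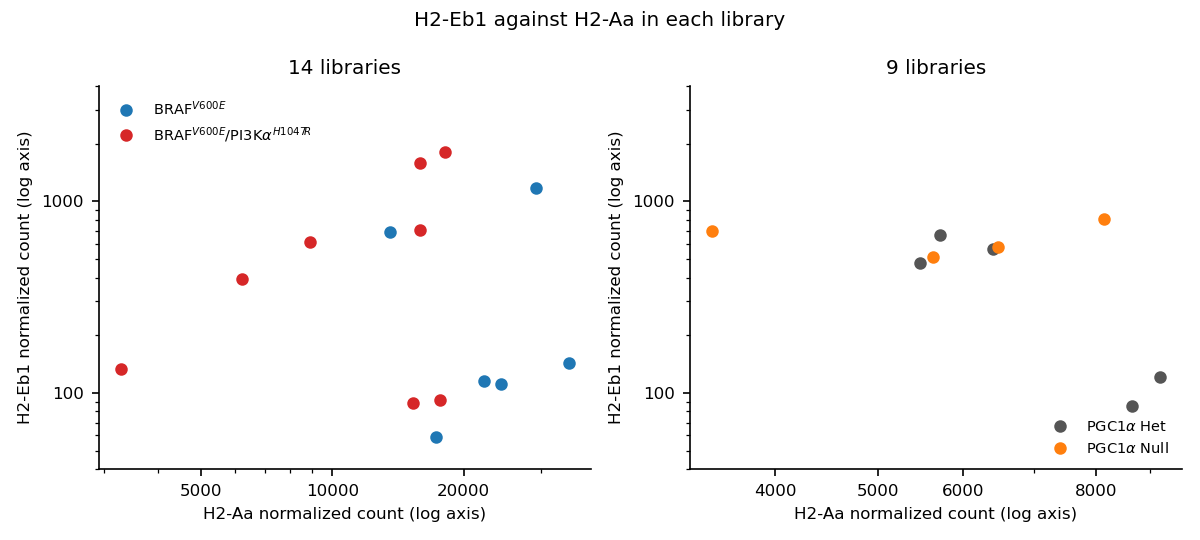
H2-Eb1 against H2-Aa normalized counts in each library (log axes), for the 14 libraries of the first table and the 9 of the second. Of the 14 libraries, 7 lie at 58.8 to 143 and 7 at 394 to 1800 for H2-Eb1, with H2-Aa from low to high in both, and of the 9 libraries 2 PGC1αHet libraries lie at 85.0 and 120.

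Other genes of the class II pathway were counted over a list of 32, of which 31 were in the tables and 30 were tested in the first table and 31 in the second. None passed in any genotype or week comparison. With all weeks together 24 of 30 had a positive log2 difference with PI3KαH1047R, where 51.8% of all genes did, and the median was 0.29, beside 0.02 over all genes. Over the 11 libraries lower in endothelial markers 20 of 30 were positive, where 51.9% of all genes were, with a median of 0.12, and none passed. H2-DMb2, a second editor β chain gene close in sequence to H2-DMb1, differed by -1.09 ± 0.28 (limma adjusted p = 0.332) and by -1.31 ± 0.32 at 6 weeks (limma adjusted p = 0.726). Rfxank, part of the factor that binds the X box, differed by 0.87 ± 0.35 (limma adjusted p = 0.657) and its partner Rfx5 by 0.02 ± 0.27. Irf1, a transcription factor induced by interferon γ, differed by 0.61 ± 0.40. Over the 11 libraries lower in endothelial markers the differences of H2-DMb2, Rfxank, Rfx5 and Irf1 with all weeks together were -0.73 ± 0.26, 0.61 ± 0.38, 0.14 ± 0.31 and 0.43 ± 0.44. At 2 weeks Ifi30, a thiol reductase of antigen processing, differed by -1.78 ± 0.50 (limma adjusted p = 0.160) and Sppl2a, a protease that clears the invariant chain remnant, by 1.00 ± 0.38 (limma adjusted p = 0.282). Between PGC1αNull and PGC1αHet tumors Ctss, the cathepsin that trims the invariant chain, differed by 1.50 ± 0.59 and Cd274, which encodes PD-L1, by 1.03 ± 0.39 (limma adjusted p = 0.998 for both).

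On the slope against Sftpc over 14 libraries, 3 of the 30 passed with a positive slope, where 7.6% of all genes did, and 3 with a negative one, where 8.81% did, so both shares (10% each) lay near those of all genes. H2-Eb2 (0.56 ± 0.14), H2-DMb2 (0.46 ± 0.11) and Ifi30 (0.54 ± 0.11) were positive (limma adjusted p from 0.00316 to 0.0123). Ifngr1, a chain of the interferon γ receptor (-0.46 ± 0.11), its kinase Jak1 (-0.28 ± 0.08) and the costimulatory receptor gene Cd40 (-0.33 ± 0.11) were negative (limma adjusted p from 0.0125 to 0.0440). Without the 3 libraries highest in endothelial markers 0 of the 30 passed in either direction (limma, 0.0571% of all genes called). An unadjusted p-value under 0.05 was reached by 1 of the 30, the cathepsin gene Ctsl, and by 1962 of all 17526 genes. The 6 slopes kept their signs, with H2-Eb2 at 0.59 ± 0.42, H2-DMb2 at 0.31 ± 0.40, Ifi30 at 0.53 ± 0.26, Ifngr1 at -0.76 ± 0.39, Jak1 at -0.45 ± 0.26 and Cd40 at -0.24 ± 0.35. The part of the endothelial markers in the 6 slopes was not tested.

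The genes most like the mean log2 level of the 7, among 14200 with a mean normalized count over 40, were Mgst1 (r = 0.950), Pon3 (0.949), Tmem139 (0.945), Ldha (0.937) and Plcd3 (0.932) over the 14 libraries. Sftpc ranked 55 in that order (r = 0.900) and Adgre1 4858 (r = 0.218). Mocs1 ranked 1 (r = 0.953) without the 3 libraries highest in endothelial markers, and Pon3, Mgst1, Tmem139, Plcd3 and Ldha ranked 2, 6, 24, 38 and 83 among 14172 genes, with Sftpc at 87 (r = 0.782) and Adgre1 at 3406 (r = 0.320). Rpap1, Sumo3 and Rps18 ranked 3, 4 and 5 there (r = 0.896, 0.890 and 0.878). Rps18 also ranked 1 for likeness to H2-Eb1 over the 14 libraries. H2-Eb1 is one of the 7 genes in the mean, and its part in these ranks was not tested. Over the 9 libraries Cst3 (r = 0.923), Nfkbia (0.919), Bpifa1 (0.912), Cldn2 (0.908) and Tbpl1 (0.907) led 12720 genes, with Sftpc at 101 (r = 0.811) and Adgre1 at 6685 (r = 0.04).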

How the data were processed

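RNA of flow sorted tdTomato+ lung tumor cells from BRAFV600E, BRAFV600E/PI3KαH1047R, PGC1αHet and PGC1αNull mice was sequenced by the authors, and genes were quantified with Salmon and normalized with DESeq2, tools which the submitters' processing notes name with the build GRCm38 and no version. The deposited values are a normalized signal per gene, that is, normalized read counts that are not whole numbers, in 2 tables normalized separately. Reads could not be recovered from them, because between 10.6% and 41.4% of values under 20 in the 14 libraries, and between 15.2% and 26.8% in the 9 libraries, lay within 0.01 of a whole multiple of the commonest step. A count test was therefore not run.

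Values were transformed as log2 (normalized count + 1), so that fold changes of low genes are understated. Genes whose mean over a table reached 10 normalized counts were tested with limma 3.58.1 (R 4.3.3), two-sided, with an intensity trend and Benjamini-Hochberg adjustment over all genes tested at 0.05. Single genes were also tested by exact permutation of libraries, and correlations by exact permutation under 10 libraries or by 100000 permutations (Python 3.11.15, numpy 2.4.6, pandas 2.3.3, scipy 1.17.1). The test was checked on simulated data. Groups came from the sample labels. The 7 genes, the marker and pathway lists and the comparisons were chosen with earlier results of these data known. Named genes were the 7 members, Sftpc, Adgre1, single markers of other cell types, pathway genes with an unadjusted p-value under 0.05 in a genotype comparison together with H2-Ea-ps, Rfx5, Irf1 and Ctss, and the 5 genes most like the mean of the 7 in each table. The 5 most like it without the 3 libraries highest in endothelial markers were named as well. The values of 1 further pathway gene are not reported here. Genes near H2-Eb1, pathway genes with a slope on Sftpc and slopes on Ciita were chosen after values had been seen. Alternatives were another pseudocount, other filters, quantile normalization, sex, week, genotype or replicate number as a factor, and leaving out libraries. Figures were drawn with matplotlib 3.10.9.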

Additional observations from a re-analysis of the deposited data

Results flagged for a closer look

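The 7 genes, Sftpc and Adgre1 were each checked in the groups of 4 to 10 libraries for a lowest or highest library that stood off by more than Dixon's 95% critical value. That made 27 checks, of which chance gives about 1 in 20. In PGC1αHet tumors the lowest H2-Ab1 value, 3066 normalized counts in replicate 2, lay below the next at 3454, a gap of 0.809 of the group's range. In PGC1αNull tumors the highest Ciita value, 505 normalized counts in replicate 1, lay above the next at 265, a gap of 0.920 of the range.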

How the results depend on the processing

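Of 264 counts of class II genes past the threshold under an alternative, 261 did not differ by more than 1.5 times from the reported count. The exceptions were the slope on Sftpc over 14 libraries, with 0 of 7 genes without the 3 libraries highest in endothelial markers, the genotype comparison at 2 weeks, with 0 to 2 when single libraries were left out (2 without BRAFV600E/PI3KαH1047R 6 week replicate 1), and 6 against 2 weeks, with 0 to 1 (1 without BRAFV600E 2 week replicate 1). Of 1463 single values, 1400 kept direction and side of the threshold, 5 lost the call, 3 gained one and 55 changed sign. None of the 55 was called before or after, and the lowest unadjusted limma p among them was 0.302. The cause was not tested.

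Sign changes of genotype differences on the log2 scale were these. Without the 3 libraries highest in endothelial markers, an alternative added after seeing the data, Ciita was 0.22 and H2-Ab1 0.12. With sex as a factor, taken from the labels although 2 of the 14 go against Kdm5d, H2-Eb1 at 2 weeks was 0.20, and H2-DMb1 between PGC1αNull and PGC1αHet was -0.0231. With single libraries left out, Ciita ran from -0.27 to 0.12 with weeks together, from -1.16 to 0.32 at 2 weeks and from -0.63 to 0.0814 at 6 weeks. At 12 weeks Cd74 ran from -0.20 to 0.42 and H2-DMb1 from -0.31 to 0.56. Between PGC1αNull and PGC1αHet, Ciita ran from -0.13 to 0.22, H2-DMa from -0.20 to 0.11 and H2-DMb1 from -0.24 to 0.16. The 2 week comparison could not be fitted without its only BRAFV600E library.

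Sign changes of slopes were these. With Pecam1 as a term, added after seeing the data, the slope on Sftpc was -0.0449 for Ciita and -0.14 for H2-Eb1. Without both BRAFV600E/PI3KαH1047R libraries at 12 weeks, also added then, it was -0.0088 for H2-Eb1, and the slopes on Adgre1 were -0.22 for Cd74, -0.0015 for Ciita, -0.17 for H2-Ab1, -0.17 for H2-DMa and -0.22 for H2-DMb1. On Adgre1, H2-DMb1 was -0.0388 without the 3 libraries highest in endothelial markers and H2-Aa 0.0699 with genotype as a factor. In the 9 libraries the slope of H2-Eb1 on Sftpc was -0.0306 after quantile normalization. There the slopes on Adgre1 were -0.11 for H2-Ab1 and -0.55 for H2-Eb1 with genotype as a factor, 0.0303 for H2-DMa after quantile normalization, and 0.11 for H2-DMa and 0.0258 for H2-DMb1 with Sftpc in the fit. With single libraries left out, slopes on Adgre1 over 14 libraries ran from -0.11 to 0.24 for Cd74, -0.16 to 0.13 for H2-Aa, -0.0534 to 0.28 for H2-Ab1, -0.0827 to 0.17 for H2-DMa and -0.13 to 0.21 for H2-DMb1. Over 9 libraries they ran from -0.0761 to 0.24 for Ciita and -0.13 to 0.0642 for H2-DMa, and those of H2-Eb1 on Sftpc from -0.23 to 2.90.

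Same replicate numbers did not mark shared animals. The deviations of same-numbered libraries had r from -0.28 to -0.01 at 6 weeks. Between PGC1αNull and PGC1αHet r was 0.21 and 0.14 for replicates 1 and 3 and -0.21 and -0.47 for replicates 2 and 4. At 12 weeks r was -0.15 for both pairs. With 2 libraries per group the deviations mirror each other, so the 12 week value cannot show whether such libraries deviate together. The replicate block was used with weeks together, at 6 weeks, at 12 weeks and between PGC1αNull and PGC1αHet. None of the 7 genes passed in these comparisons. The sign turned for Ciita with weeks together (0.0888) and for H2-DMb1 between PGC1αNull and PGC1αHet (-0.0387). Over all genes the block gave 6 calls against 4 with weeks together. With 6 week libraries alone it gave 2 against 10 without it. With 12 week libraries alone the block, a crossed pairing and no block gave 0.

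Counts over all genes moved more than those of the 7 genes when libraries were left out. At 2 weeks they ran from 0 to 268 against 3, at 6 weeks from 1 to 12 against 4 (12 without BRAFV600E 12 week replicate 1), with weeks together from 3 to 9 against 4, for 6 against 2 weeks from 1 to 102 against 9, and for the slope on Sftpc over 14 libraries from 1769 to 3020 against 2881. Other alternatives gave 0 to 107 at 2 weeks, 0 to 16 at 12 weeks against 2, 3 to 7 with weeks together and 10 to 3088 for that slope. For the slope on Adgre1 over 9 libraries the counts ran from 0 to 28 against 15. Depth in reads is unknown, 2 weeks rests on 3 libraries and 12 weeks on 4, and several sets of libraries in the report are small.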
